A study of Mus musculus with 64 samples.

Results

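The 10 genes described here govern how a cell handles gemcitabine, a deoxycytidine analogue used against pancreatic cancer, and how it salvages nucleosides: Dck, Cda, Slc29a1, Slc29a2, Rrm1, Rrm2, Rrm2b, Dctd, Upp1 and Tk1. They are listed by name, with no cutoff on measured values, but the list was drawn up with earlier results of these data known. All 10 were found, each as 1 row, among the 39017 genes of the count table. They were followed across 8 mouse pancreatic tumor cell lines, each in 2 cultures. The 8 lines were 7 clones and the line KPC1. The labels describe tumor cells of KPC mice, whose alleles include Trp53 +/R172H with Pdx1-Cre, on a mixed C57BL/6 background. Pdx1-Cre drives recombination in the pancreatic epithelium from early development on, and every line compared here shares this genetic model. The study assigns the clones E, H and V to metabolic group 1 and the clones K, M, N and T to group 2, and KPC1 to neither. For every line, 4 libraries were made in mono-culture and 4 in coculture, 64 in all. The cocultured cells had spent 48 h with fibroblasts and were then recovered by fluorescence-activated sorting for GFP. Each clone is a single line, so its 4 libraries are not separate isolations of a clone. The labels name no drug treatment, and sorting of the mono-cultures is not stated.

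Gemcitabine enters cells through nucleoside transporters, of which the equilibrative carriers encoded by Slc29a1 (ENT1) and Slc29a2 (ENT2) are members. Dck, deoxycytidine kinase, adds the first phosphate, the step that commits the drug to activation, whereas Cda, cytidine deaminase, inactivates it before and Dctd, dCMP deaminase, after that step. Gemcitabine diphosphate inhibits ribonucleotide reductase, whose large subunit is encoded by Rrm1 and whose small subunit is encoded by Rrm2 in cycling cells and by Rrm2b, a p53 target, at other times. Tk1 encodes the cytosolic thymidine kinase of S phase, and Upp1 the uridine phosphorylase that splits uridine into uracil and ribose 1-phosphate.

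In the GENCODE M21 annotation of GRCm38, the transporters lie at chr17:45585200-45599606 on the minus strand (Slc29a1) and chr19:5023860-5031972 on the plus strand (Slc29a2). The 2 kinases lie at chr5:88764996-88783281 (Dck, plus) and chr11:117815526-117826092 (Tk1, minus). Cda lies at chr4:138338424-138367992 (minus), Dctd at chr8:48099092-48153233 (plus) and Upp1 at chr11:9118103-9136170 (plus). The reductase subunits lie at chr7:102441695-102469771 (Rrm1, plus), chr12:24708241-24714146 (Rrm2, plus) and chr15:37923952-37961318 (Rrm2b, minus). Tk1 overlaps Afmid and Gm20708, and Slc29a1 and Rrm2b overlap antisense genes. On the same strand, Rrm1 overlaps Gm45399 and Rrm2b overlaps the processed pseudogene Gm3362. The strand setting of the counting is not given in the sources used here, and it cannot separate genes on the same strand. Reads of these overlapping genes may therefore not be fully separated.

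Sequence upstream of the start was taken from RefSeq (GRCm38.p6), which held at least 1 promoter for 9 of the 10 genes, all but Rrm2b. The windows of Rrm1, Rrm2 and Dck are shown because the levels of the 2 reductase subunits are set against S phase genes below, and that of Dck because it encodes the activating kinase. Each runs 5′ to 3′ on the strand of its gene, and bases inside the annotated gene were left off. Capitals mark matches, on either strand, to an E2F word (TTNNCGC with C or G at each N), to the CCAAT box, and to the CHR element (TTTGAA or its variant TTTAAA).
Rrm1 (chr7:102441445-102441694, plus): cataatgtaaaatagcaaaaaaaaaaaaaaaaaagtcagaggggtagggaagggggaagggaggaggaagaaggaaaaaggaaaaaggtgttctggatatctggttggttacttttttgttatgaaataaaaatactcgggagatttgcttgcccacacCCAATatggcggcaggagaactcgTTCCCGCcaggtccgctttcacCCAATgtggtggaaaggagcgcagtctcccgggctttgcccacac
Rrm2 (chr12:24708004-24708240, plus): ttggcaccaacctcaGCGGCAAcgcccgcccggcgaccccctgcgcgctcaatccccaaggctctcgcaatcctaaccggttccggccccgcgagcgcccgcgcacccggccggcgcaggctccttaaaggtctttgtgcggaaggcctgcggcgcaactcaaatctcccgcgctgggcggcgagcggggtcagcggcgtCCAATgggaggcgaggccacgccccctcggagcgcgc
Dck (chr5:88764763-88764995, plus): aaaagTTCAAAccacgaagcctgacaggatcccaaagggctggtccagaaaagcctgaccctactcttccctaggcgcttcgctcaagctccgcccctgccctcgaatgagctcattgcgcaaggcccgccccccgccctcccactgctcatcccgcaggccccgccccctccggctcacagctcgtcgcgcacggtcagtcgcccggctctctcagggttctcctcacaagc
Rrm1 held 1 E2F word between CCAAT words on both sides, Rrm2 held 1 E2F word and 1 CCAAT word, and Dck held only a CHR word. The window of Tk1, which lies within Afmid and Gm20708 and is not shown, held the palindrome TTTAAA and no E2F or CCAAT word. Among the other windows not shown, those of Slc29a1, which had 8 promoters, held an E2F word and also CCAAT and CHR words. Those of Dctd, which had 3 promoters, held CCAAT and CHR words. Of 32851 RefSeq promoters searched over the same 250 bases, 7.89% held an E2F word, 33.8% a CCAAT word and 25.2% a CHR word. These matches describe the letters and do not show binding.

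Library totals ranged from 11178721 to 21333683 counts. Expression is given as CPM, counts scaled to a fixed library size, after TMM normalization. A gene was called when the adjusted p-value of edgeR's quasi-likelihood test was under 0.1, the threshold of the study, with Benjamini-Hochberg adjustment over all genes tested. Nothing in the labels says that the 4 libraries came from separate cultures, so the p-values within a line measure only the spread between these libraries. The p-values over lines and between groups measure the spread between these lines, not between tumors. The tumor markers Krt8 and Krt18 were at 314 CPM or more in every line and culture, whereas Epcam was at most 0.370 CPM and Cdh1 ranged from 0.784 to 304 CPM between lines. Of 20 fibroblast markers, 7 were at most 1 CPM in every mono-culture, summing to between 0.0134 and 0.348 CPM, and the same 7 summed to between 71.2 and 123 CPM in the sorted cocultures. Among them Postn was at 0.0503 CPM or less in every mono-culture and at 38.1 to 73.5 CPM in coculture, and Lum was at or near 0 in both. Of the 19 fibroblast markers tested over the lines, 16 rose in coculture and 1 fell, with a median log2 fold change of 4.68. Col1a1, a collagen chain, lay between 2.65 and 31.6 CPM in the mono-cultures and between 172 and 339.7 CPM in the cocultures. The summed level of the whole list, in which Fn1 alone held 954 to 9784 CPM in mono-culture, ranged from 2164 to 11941 CPM in mono-culture and from 3802 to 10784 CPM in coculture. The part of these markers in the coculture results was not tested, and in bulk libraries a change in the share of cells and a change in RNA per cell cannot be told apart.

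**Figure D1:**
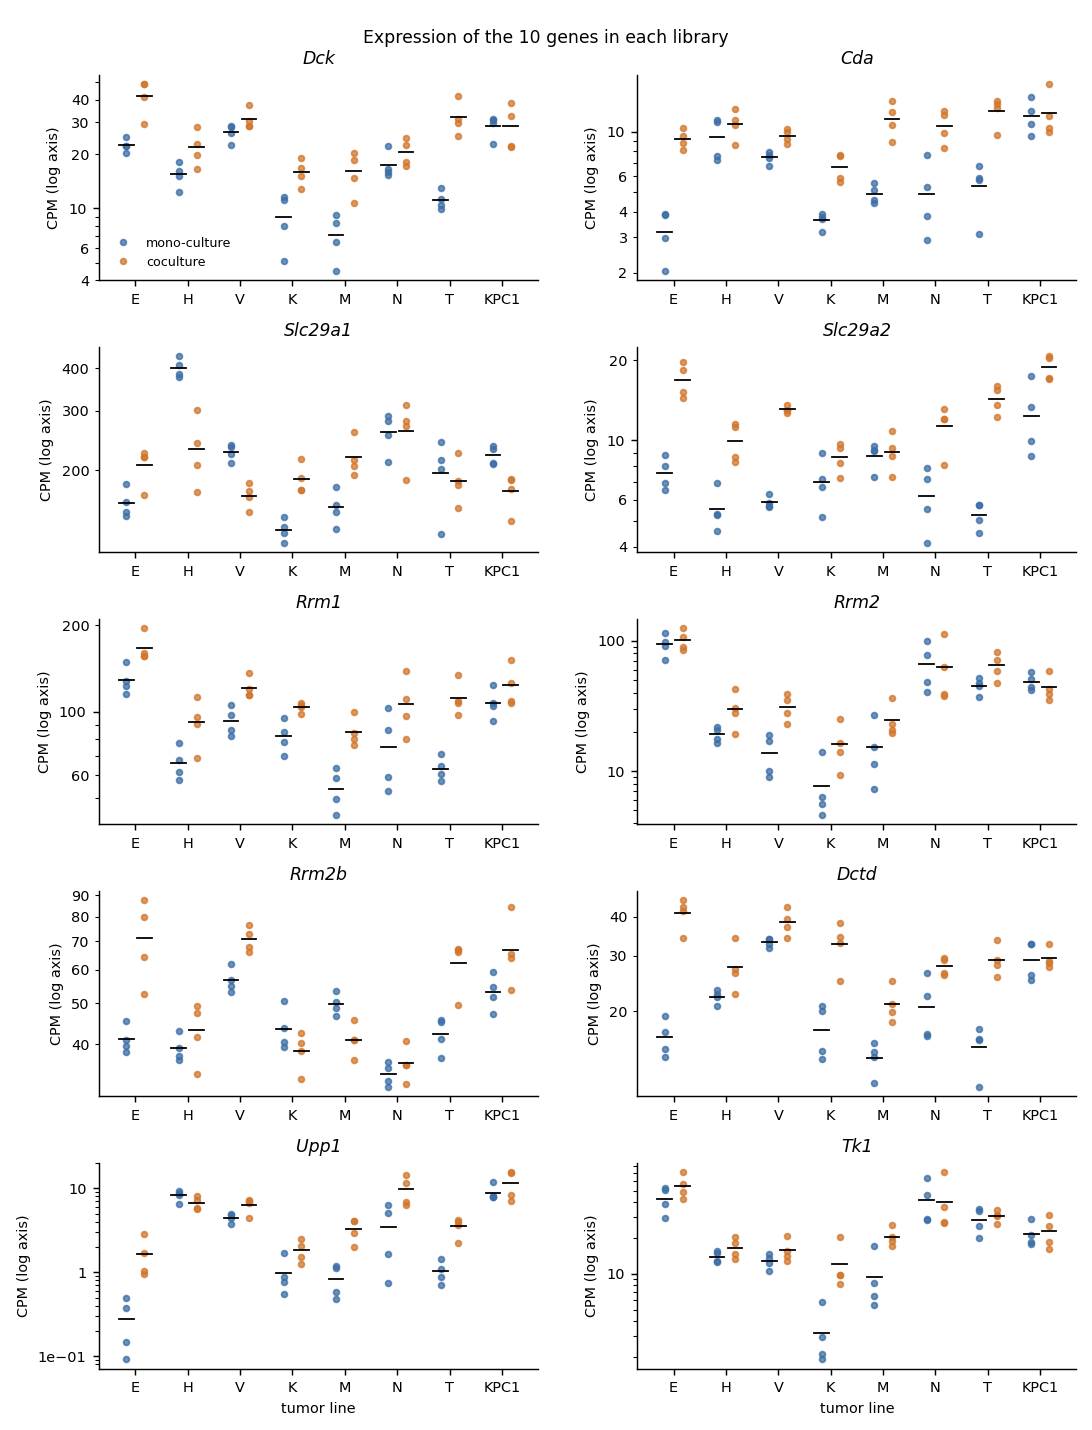
Expression of each of the 10 genes in CPM (log axis) in the 64 libraries, by tumor line. Points are single libraries (4 per line and culture), black bars are means, blue is mono-culture and orange is coculture. The mono-culture libraries of clone H lie highest for Slc29a1 and those of clone E lowest for Upp1.

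The lines differed in mono-culture in all 10 genes, against a background of 95.1% of the 14134 genes tested, and again in all 10 in coculture, where the background was 94.3%. Most genes separated these lines, so the size and order of the differences carry more than the calls. Per gene length (RPKM, the deposited values), Slc29a1 ranked first of the 10 in 8 of 8 lines in both cultures. Its median over lines was 54.3 RPKM in mono-culture and 51.97 RPKM in coculture. Its relative Slc29a2 had a median of 2.47 RPKM in mono-culture. Dck was at 4.12, Cda at 4.78, Dctd at 5.28, Rrm1 at 6.76, Rrm2b at 6.01 and Rrm2 at 10.4 RPKM, all as medians over lines in mono-culture. Upp1 had the lowest median at 1.06 RPKM. For Rrm1 the length computed from counts and RPKM had a median of 11593 bases, where its exons joined over 7 transcripts span 11012 bases. The order of the genes by RPKM depends on such lengths and is not an order of levels per transcript. The length behind a Tk1 value varied between libraries from 6408 to 11166 bases when computed from the 2 tables, so the median of 2.49 RPKM for Tk1 is less certain than the others.

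Slc29a1 was highest in clone H, with 377, 435, 410 and 384 CPM in the 4 mono-culture libraries. Clone H was higher than the next line, N at 259 ± 34.7 CPM (SD, n = 4), by 0.63 on the log2 scale (adjusted p = 0.000166, edgeR). Below N the order ran V, KPC1, T, E, M and K, and no 2 neighbours in it differed beyond their spread. Clone K was lowest with 134 ± 9.93 CPM (SD, n = 4). In coculture the range closed to between 168 ± 13.7 CPM in V and 262 ± 52.5 CPM in N (SD, n = 4 each), and no pair of neighbours was called.

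Slc29a2 was highest in KPC1, at 13.4, 17.4, 8.77 and 9.93 CPM in mono-culture. KPC1 was above the next line, M at 8.78 ± 1.00 CPM (SD, n = 4), by 0.49 on the log2 scale (adjusted p = 0.0106). From M down to T, at 5.26 ± 0.597 CPM (SD, n = 4), the neighbours E, K, N, V, H and T did not differ beyond their spread.

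Dck in mono-culture ranged from 7.10 ± 2.06 CPM in clone M to 28.6 ± 3.99 CPM in KPC1 (SD, n = 4 each). The order was KPC1, V, E, N, H, T, K and M, and of its neighbours only H and T differed, by 0.46 on the log2 scale (adjusted p = 0.0619). The lowest library of KPC1, at 22.7 CPM, lay above the highest of M, at 9.13 CPM. Tk1 spread more widely, from 3.199 ± 1.77 CPM in clone K to 42.7 ± 10.8 CPM in clone E (SD, n = 4 each). The 4 mono-culture libraries of K held 2.14, 1.93, 2.95 and 5.78 CPM, and K was below the next line, M, by 1.55 on the log2 scale (adjusted p = 0.000164). KPC1 and H also differed, and the pairs E and N, N and T, T and KPC1, H and V, and V and M did not.

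Cda followed another order. KPC1 was highest with 11.97 ± 2.35 CPM, followed by H, V, T, M, N, K and E, the last with 3.19 ± 0.879 CPM (SD, n = 4 each). Neighbours differed between V and T and between N and K only, with adjusted p-values of 0.0549 and 0.0947. Dctd was highest in V, at 34.02, 34.03, 32.8 and 31.7 CPM, and lowest in M, at 14.8, 14.3, 15.8 and 11.8 CPM. Only KPC1 and H differed among its neighbours, by 0.39 on the log2 scale (adjusted p = 0.0200).

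Upp1 had the widest range of the 10 genes. Clone E held 0.0925, 0.149, 0.376 and 0.496 CPM in mono-culture and KPC1 held 11.9, 7.78, 7.81 and 8.12 CPM, so every KPC1 library lay above every E library. Over the summed libraries the highest line was 32.5 times the lowest. The lines fell into steps: H was above V by 0.88 (adjusted p = 0.0380), N above T by 1.73 (adjusted p = 0.000648) and M above E by 1.59 on the log2 scale (adjusted p = 0.0211). T, K and M, at 1.03, 0.969 and 0.841 CPM, did not differ beyond their spread.

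The reductase subunits differed in how far they varied. Rrm2 ranged from 7.62 ± 4.26 CPM in K to 93.5 ± 18.5 CPM in E, whereas Rrm1 ranged from 53.8 ± 8.94 CPM in M to 129 ± 14.2 CPM in E and Rrm2b from 34.04 ± 2.18 CPM in N to 56.7 ± 3.72 CPM in V (SD, n = 4 each). On the summed libraries the highest line was 12.6 times the lowest for Rrm2, 2.46 times for Rrm1 and 1.66 times for Rrm2b. Rrm2 stepped down between T and H by 1.23 (adjusted p = 0.00107) and between V and K by 0.86 on the log2 scale (adjusted p = 0.0324). No neighbours in the order of Rrm1 or Rrm2b in mono-culture differed beyond their spread.

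Rrm2 and Tk1 went together over the lines, and with S phase genes. Over the 8 lines in mono-culture, Pearson's r between log2 CPM of Rrm2 and Tk1 was 0.952 (Spearman's rho 0.952), and 0.939 without the 2 lines farthest from the median of Rrm2. The score of 25 S phase and mitosis genes, which is the median of their log2 CPM after each gene was centred on its 8 lines, had an r of 0.924 with Rrm2 and 0.957 with Tk1. For Rrm1 the same r was 0.422, and for Rrm2b it was -0.265. In coculture the r of the score was 0.977 with Rrm2, 0.908 with Tk1, 0.645 with Rrm1 and 0.472 with Rrm2b, and that between Rrm2 and Tk1 was 0.948. Dck had an r of 0.729 in mono-culture, which was 0.228 without 2 lines, and of 0.769 in coculture. Cda and Upp1 had an r of 0.930 in mono-culture and of 0.559 in coculture, while the r of the S phase score in mono-culture was 0.230 with Cda and 0.255 with Upp1. All these are descriptions over 8 lines that share drivers and library preparation, and no test was attached to them.

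**Figure D2:**
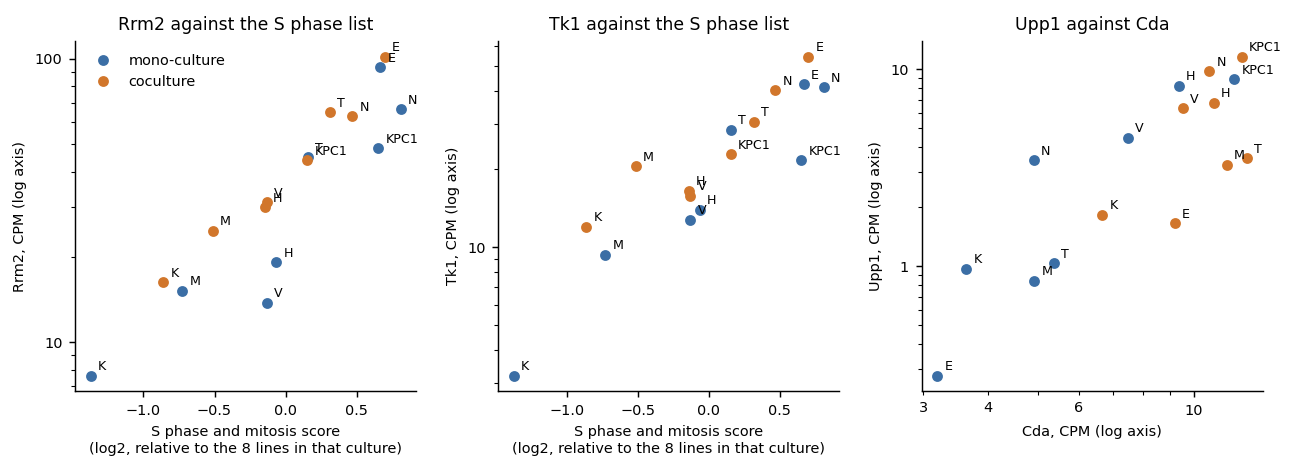
Mean CPM of Rrm2 and Tk1 against the score of 25 S phase and mitosis genes, and of Upp1 against Cda (log axes for CPM), with 1 point per line and culture (mean of 4 libraries, 8 lines). In mono-culture (blue) K lies at the low end of the score and E and N at the high end of both genes, and clone E is lowest in Cda and Upp1.

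Of all genes compared with each member over the 16 line and culture means, those most alike to Rrm2 were Dscc1 (r = 0.969), Asf1b and Foxm1, and those most alike to Tk1 were Mcm5 (r = 0.983), Spc24 and Birc5. The genes most alike to Dck were Mcm7 (r = 0.969), Rfc2 and Cenph, and to Rrm1 they were Bub3 (r = 0.927), Lyrm1 and Rfc3. Slc29a2 was nearest to Drap1 (r = 0.956), Cwf19l1 and Atad1, and Slc29a1 to Igfbp4 (r = 0.875), Hhex and Dnah7b. Dctd was nearest to Itpa (r = 0.929), its pseudogene Itpa-ps1 and Fam171b, and Rrm2b to Uck1 (r = 0.902), Mrpl9 and AW209491. Cda was nearest to Ptk7 (r = 0.927), Zfpm2 and 4930467D21Rik, and Upp1 to Pgf (r = 0.969), Ptprn and E130012A19Rik.

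Coculture with fibroblasts was compared with mono-culture over the 8 lines. The libraries of a line and culture were summed, and the line was a covariate. Of the 10 genes, 8 rose, none fell, and Slc29a1 and Rrm2b did not pass the test. The background was 27.2% of the 14478 genes tested that were called higher. The median log2 fold change was 0.54 over the 10 genes and -0.000892 over all genes tested. The genes that rose included the activating kinase Dck and both inactivating deaminases, Cda and Dctd.

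Slc29a2 ranged over lines from 5.23 to 12.2 CPM with a median of 6.60 in mono-culture and from 8.61 to 18.96 CPM with a median of 12.3 in coculture. It was higher in coculture in 8 of 8 lines, by 0.81 ± 0.16 on the log2 scale (SE, adjusted p = 0.00359). Slc29a1 ranged from 133 to 400 CPM (median 209) in mono-culture and from 171 to 265 CPM (median 197) in coculture, higher in 4 lines and lower in 4, with a log2 fold change of -0.04 ± 0.15 (SE, adjusted p = 0.857).

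Dck rose from a median of 16.4 CPM (range 6.97 to 28.7) to 25.99 CPM (range 15.9 to 41.7), by 0.68 ± 0.16 on the log2 scale (SE, adjusted p = 0.00846), and was higher in 8 of 8 lines. Tk1 rose from a median of 17.9 CPM (range 3.17 to 42.6) to 21.3 CPM (range 12.1 to 54.04), higher in 7 of 8 lines, by 0.49 ± 0.21 (SE, adjusted p = 0.0779). The call of Tk1 was lost in some fits that left out a line or a replicate number. The adjusted p-value was 0.116 without E, 0.166 without M, 0.105 without V and 0.101 without the libraries of replicate number 4. The log2 fold change of Tk1 in these fits was 0.51, 0.39, 0.52 and 0.45 in the same order, against 0.49 with all lines and libraries.

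Cda rose from a median of 5.14 CPM (range 3.19 to 12.01) to 10.8 CPM (range 6.66 to 12.7), by 0.83 ± 0.18 on the log2 scale (SE, adjusted p = 0.00519), and Dctd from 19.002 CPM (range 14.0 to 33.5) to 29.5 CPM (range 20.99 to 40.5), by 0.59 ± 0.13 (SE, adjusted p = 0.00723). Both were higher in 8 of 8 lines. Upp1 showed the largest change of the 10 genes, from a median of 2.25 CPM (range 0.273 to 8.88) to 4.998 CPM (range 1.62 to 11.2), a 2.16-fold rise (log2 1.11 ± 0.30 SE, adjusted p = 0.0136), with H lower in coculture and the other 7 lines higher.

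Rrm1 rose in 8 of 8 lines from a median of 79.0 CPM (range 52.97 to 130.3) to 108 CPM (range 84.5 to 165), by 0.47 ± 0.07 on the log2 scale (SE, adjusted p = 0.00160). Rrm2 went from a median of 32.2 CPM (range 7.54 to 94.7) to 37.8 CPM (range 16.3 to 101) and was higher in 6 of 8 lines, by 0.50 ± 0.16 (SE, adjusted p = 0.0270). Rrm2b, at a median of 42.99 CPM (range 34.3 to 57.01) and then 52.96 CPM (range 35.8 to 71.8), was higher in 6 of 8 lines by 0.21 ± 0.11 (SE, adjusted p = 0.142), and was called without K (adjusted p = 0.0750) or M (adjusted p = 0.0587). The 5 genes higher in all 8 lines were Dck, Cda, Slc29a2, Rrm1 and Dctd, against 14.2% of all genes tested.

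Sample numbers in the labels ran in 2 series, 1 to 43 (43 libraries) and 44 to 64 (21 libraries), and all mono-culture libraries of K were in the second. Within the first series alone, which therefore has no K in mono-culture, the log2 fold change of Rrm2 was 0.26 (adjusted p = 0.270) and that of Tk1 was 0.20 (adjusted p = 0.316), and neither was called. Rrm2b was called there at 0.30 (adjusted p = 0.0671), and the other 6 genes that had risen were called there too. When K alone was left out of both series, 9 of the 10 genes were called higher, Rrm2 and Tk1 among them.

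**Figure D3:**
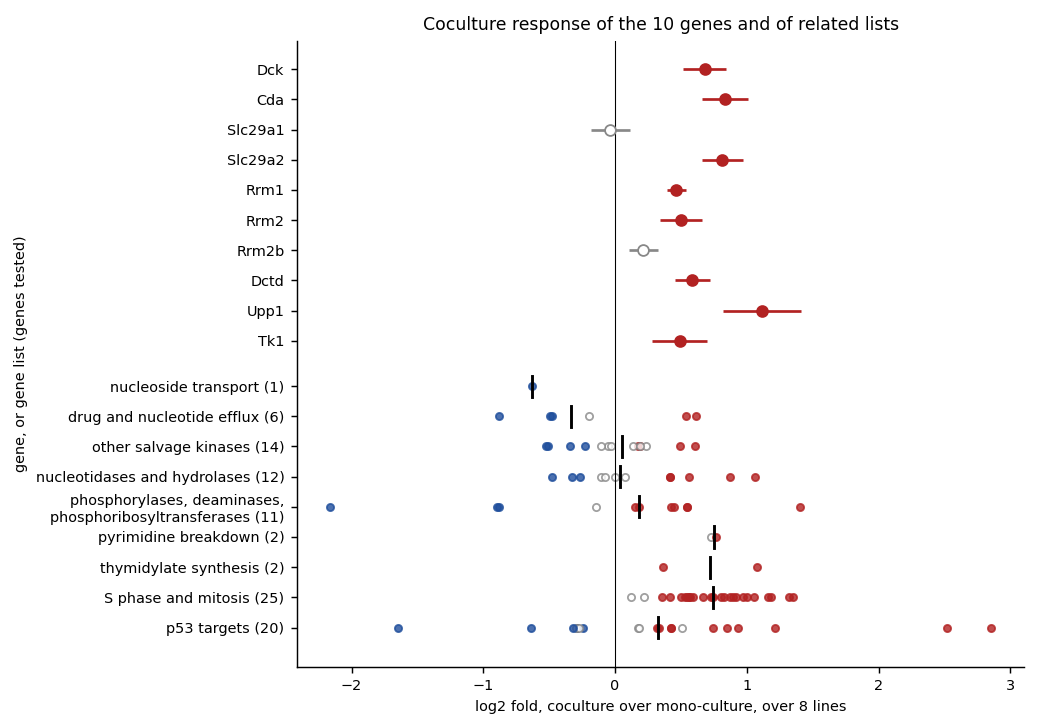
Log2 fold change of coculture over mono-culture across 8 lines for the 10 genes (points with bars of 1 SE) and for the tested genes of 9 related lists (points, with the number tested in brackets and the list median as a black bar). Red marks genes called higher, blue genes called lower and open grey points genes not called. Of the 10 genes, 8 are red, and the S phase and mitosis list lies wholly above 0.

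The spread between lines was smaller in coculture for 8 of the 10 genes, against 57% of all genes tested. For Cda the highest line was 3.76 times the lowest in mono-culture and 1.91 times in coculture, for Slc29a1 3.001 and 1.56 times, for Tk1 13.4 and 4.46 times, and for Upp1 32.5 and 6.90 times. In Cda, 10 of 28 pairs of lines differed in coculture, where 21 of 28 had differed in mono-culture. Rrm2b spread further, from 1.66 to 2.01 times, and so on the log2 scale did Slc29a2, with an SD of 0.40 in mono-culture and 0.42 in coculture. The difference in spread between the cultures was not tested.

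**Figure D4:**
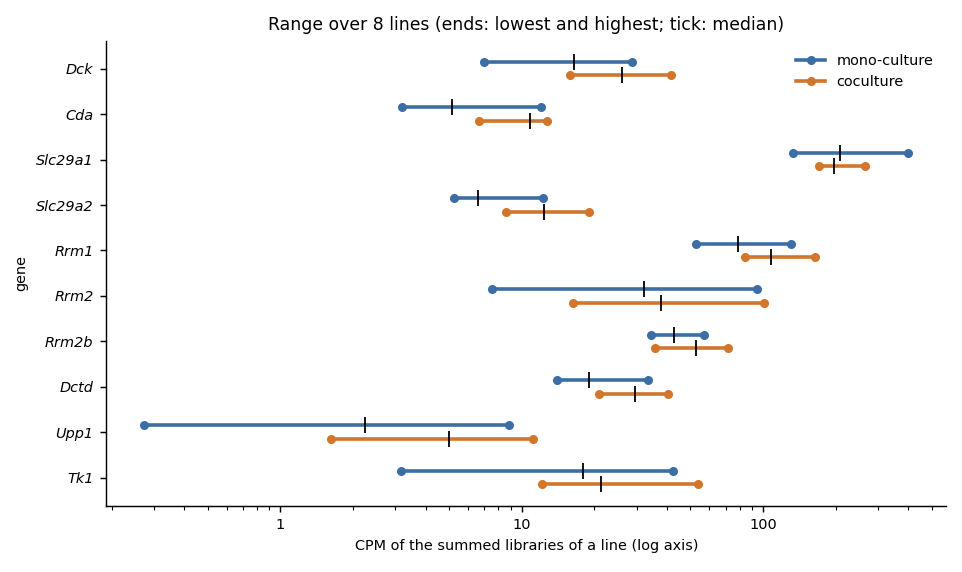
Range over the 8 lines of the CPM of each gene (log axis), from the summed libraries of a line, in mono-culture (blue) and coculture (orange). Dots mark the lowest and highest line and ticks the median. The range of Cda narrows from 3.19 to 12.01 CPM to 6.66 to 12.7 CPM, and that of Rrm2b widens.

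The response itself differed between lines for 9 of the 10 genes by the interaction of line and culture, against a background of 71.3%. Rrm1 alone was not called in that test (adjusted p = 0.184), with log2 fold changes between 0.20 in KPC1 and 0.82 in T. The call of Rrm2 was lost without replicate 2 (adjusted p = 0.337) and without replicate 4 (adjusted p = 0.113). Across the 80 pairs of a gene and a line, 44 were called higher, 4 lower and 32 not called. In 10 of the 48 called pairs the 4 coculture libraries overlapped the 4 mono-culture libraries.

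The number of genes called higher varied by line and is given with the background of all 14134 genes tested. In E it was 8 of 10 (background 32.1%), in T 7 (31.5%), in M 8 (21.6%), in N 5 (20%), in K 6 (12.5%), in V 4 (30%), in H 4 (21.4%) and in KPC1 2 (20.1%). The median log2 fold change of the 10 genes was highest in T at 0.87, with E and K at 0.85, and lowest in KPC1 at 0.06, while the median of all genes tested in these lines lay within 0.04 of 0. The 4 falls were Slc29a1 in H, V and KPC1 and Rrm2b in M, where 22.6%, 31.5%, 19% and 17.3% of all genes were called lower. In coculture, the 7 fibroblast markers that were low in mono-culture summed to 76.8 CPM in E, 86.0 CPM in H and 71.2 CPM in V. They summed to 110 CPM in K, 87.5 CPM in M, 123 CPM in N, 103 CPM in T and 76.0 CPM in KPC1.

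**Figure D5:**
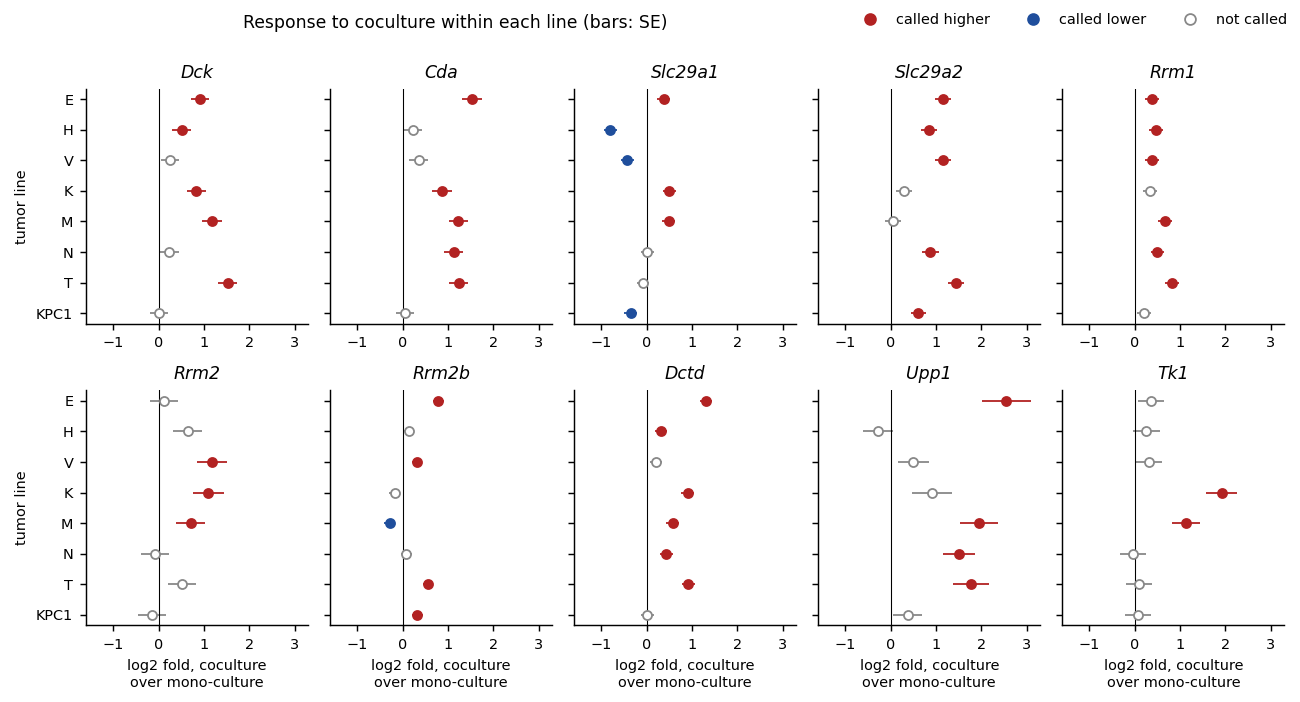
Log2 fold change of coculture over mono-culture within each of the 8 lines for the 10 genes, with bars of 1 SE (4 libraries per culture). Red is called higher, blue called lower and open grey not called. Slc29a1 is blue in H, V and KPC1 and red in E, K and M, and KPC1 has 2 red points in all.

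Slc29a1 moved in opposite directions. In H it was at 377, 435, 410 and 384 CPM in mono-culture and at 302, 240, 207 and 173 CPM in coculture, so that all coculture libraries lay below all mono-culture libraries, and it fell by 0.80 on the log2 scale (adjusted p = 1.64e-05). It also fell by 0.43 in V (adjusted p = 0.00879) and by 0.35 in KPC1 (adjusted p = 0.0493). In K it was at 122, 136, 146 and 131 CPM and then at 216, 174, 189 and 175 CPM, above every mono-culture library, a rise of 0.50 on the log2 scale (adjusted p = 0.0101). It rose by 0.49 in M and 0.37 in E and was not called in N or T. Leaving out 1 replicate number ended the calls in E (adjusted p = 0.170 without 2 and 0.111 without 3), K (0.132 without 1) and KPC1 (0.184 without 2 and 0.114 without 3). The 3 lines in which it fell had mono-culture means between 222 and 401 CPM and the 3 in which it rose between 134 and 161 CPM. Clone N, which was not called, lay within the range of the lines that fell, at 259 CPM, and T, also not called, was at 197 CPM. The level and the fold change of each line use the same mono-culture libraries. The same limit holds wherever the response of a gene below is set beside its mono-culture level.

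Slc29a2 was called in 6 lines, all higher. In T it went from 5.73, 5.05, 5.75 and 4.51 CPM to 12.3, 15.4, 15.9 and 13.6 CPM without overlap, a rise of 1.44 on the log2 scale (adjusted p = 1.60e-09). It rose by 1.16 in both E and V, 0.88 in N, 0.85 in H and 0.61 in KPC1, and its log2 fold change was 0.05 in M and 0.30 in K, not called. In H the 2 transporters thus moved apart, Slc29a1 falling and Slc29a2 rising.

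Dck rose most in T, from 12.9, 11.3, 10.5 and 9.96 CPM to 25.1, 31.4, 29.7 and 42.1 CPM. The groups did not overlap, and the rise was 1.52 on the log2 scale (adjusted p = 2.25e-08). In M it rose by 1.18, in E by 0.92, in K by 0.83 and in H by 0.51. In KPC1, which had the highest level in mono-culture, it was at 28.6 ± 3.99 CPM and then at 28.7 ± 8.15 CPM (SD, n = 4 each), a log2 fold change of 0.01 (SE 0.20, adjusted p = 0.977). V and N were not called either. The call in H was lost without replicate 3 (adjusted p = 0.133) or 4 (adjusted p = 0.385), and that in K without replicate 4 (adjusted p = 0.119).

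Tk1 was called in 2 lines. In K it went from 2.14, 1.93, 2.95 and 5.78 CPM to 9.73, 9.82, 8.19 and 20.3 CPM, without overlap, a rise of 1.91 on the log2 scale (adjusted p = 3.46e-05), and in M it rose by 1.13 (adjusted p = 0.00359). These were the lines with the lowest Tk1 in mono-culture and the lowest S phase scores, -1.37 in K and -0.73 in M. In the other 6 lines its log2 fold change lay between -0.04 in N and 0.35 in E and was not called.

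Cda rose in E, T, M, N and K. In E it went from 3.89, 3.87, 2.04 and 2.97 CPM to 9.55, 8.09, 10.4 and 8.74 CPM, all above the mono-culture libraries, a rise of 1.53 on the log2 scale (adjusted p = 8.69e-08). The rise was 1.24 in T, 1.23 in M, 1.12 in N and 0.87 in K. The 3 lines with the highest Cda in mono-culture, KPC1, H and V, had log2 fold changes of 0.05, 0.23 and 0.35 and were not called. Level and fold change here share the mono-culture libraries, and their relation was not tested.

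Dctd was called higher in 6 lines. In E it went from 19.4, 17.1, 15.2 and 14.3 CPM to 45.1, 34.2, 41.7 and 42.9 CPM without overlap, by 1.31 on the log2 scale (adjusted p = 7.73e-11). It rose by 0.92 in T and 0.90 in K, and by less in M (0.57), N (0.43) and H (0.31). V and KPC1, which had the highest Dctd in mono-culture, were not called, and the call in H was lost without replicate 3 (adjusted p = 0.219) or 4 (adjusted p = 0.340).

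Upp1 rose in 4 lines. In E it went from 0.0925, 0.149, 0.376 and 0.496 CPM to 1.71, 0.959, 1.05 and 2.87 CPM, all above mono-culture but still low, a rise of 2.55 on the log2 scale (SE 0.54, adjusted p = 7.09e-05). It rose by 1.95 in M, 1.77 in T and 1.499 in N. In N, where the 8 libraries were spread widely, it was at 1.65, 0.742, 5.14 and 6.28 CPM and then at 6.31, 6.79, 14.4 and 11.5 CPM. H, V, K and KPC1 were not called, and H had the only log2 fold change below 0, at -0.28.

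Rrm1 rose in 6 lines, most in T, where it went from 60.4, 70.9, 57.3 and 64.5 CPM to 108, 97.4, 107 and 134 CPM without overlap (log2 0.82, adjusted p = 9.90e-06). K and KPC1 were not called, although K was without replicate 1 (adjusted p = 0.0866), and the calls were lost in E without replicate 2 (adjusted p = 0.1001) and in H without replicate 4 (adjusted p = 0.180). Rrm2 rose in V, from 18.9, 17.1, 9.05 and 10.01 CPM to 34.9, 38.8, 23.1 and 27.9 CPM, by 1.18 on the log2 scale (adjusted p = 0.00193), and this was the only line in which its libraries did not overlap. Its rises in K by 1.10 (adjusted p = 0.0208) and in M by 0.71 (adjusted p = 0.0922) came with overlapping libraries. The call in K was lost without replicate 1 (adjusted p = 0.123) or 2 (0.121) and that in M without replicate 1 (0.160), 2 (0.444) or 4 (0.248). H, not called with all libraries (adjusted p = 0.107), was called without replicate 1 (0.0752) or 3 (0.0958). In E, where Rrm2 was highest, the log2 fold change was 0.12 (SE 0.31, adjusted p = 0.755).

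Rrm2b rose in E, T, KPC1 and V and fell in M. In E it went from 39.6, 38.5, 45.5 and 40.9 CPM to 80.0, 52.6, 64.4 and 87.6 CPM, without overlap, and rose by 0.79 on the log2 scale (adjusted p = 2.24e-07). It rose by 0.56 in T, 0.33 in KPC1 and 0.32 in V. In M it fell by 0.28 (adjusted p = 0.0664), from 50.4, 48.8, 46.8 and 53.4 CPM to 40.97, 45.5, 36.7 and 40.9 CPM, whereas Rrm1 and Rrm2 rose there. Leaving out 1 replicate number ended the call in M in 3 of 4 cases (adjusted p between 0.161 and 0.270), that in KPC1 in 2 (0.148 and 0.129) and that in V in 1 (0.104), and it gave a call in H without replicate 2 (0.0595).

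The libraries of N were uneven within each culture. In mono-culture its libraries held 99.0, 77.8, 40.4 and 48.4 CPM of Rrm2 and 63.3, 45.7, 28.9 and 28.2 CPM of Tk1, and in coculture 112, 62.4, 37.7 and 39.2 CPM of Rrm2 and 71.3, 36.5, 27.2 and 26.8 CPM of Tk1. The 2 libraries of each culture with more Rrm2 and Tk1 had the lower Upp1 values given above. All 4 mono-culture libraries of N carry sample numbers of the first series. The libraries with the same number in both cultures of N deviated together (r of 0.230 or more in all 4 pairs), and with these pairs as a block none of the 10 calls in N changed.

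The comparison of the metabolic groups asked whether clones that differ in metabolism differ in these genes. In mono-culture, none of the 10 genes was called between group 1 (n = 3 clones) and group 2 (n = 4), where edgeR called 0 of 14829 genes (0%), 766 genes had an unadjusted p under 0.05 and DESeq2 called 117. Of the 10 genes, 1 had an unadjusted p under 0.05 by edgeR, namely Dck. The clones of group 1 held 21.5 ± 5.63 CPM of Dck (SD), those of group 2 11.2 ± 4.57 CPM, and the log2 difference was 0.94 ± 0.36 (SE, adjusted p = 0.888). The clones overlapped, from 15.3 to 26.4 CPM against 6.98 to 17.5 CPM. All 10 genes overlapped between the groups, where 5.38% of all genes tested did not. On simulated counts this comparison recovered 0% of 200 genes changed by 1 on the log2 scale and 95.5% of those changed by 4, so it could have missed differences of the size seen here.

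In coculture the groups again overlapped in all 10 genes, where 9.09% of all genes did not, and none of the 10 was called against a background of 0.00679%. The log2 difference of Dck was 0.61 ± 0.32 (SE, adjusted p = 0.599) and that of Rrm2b 0.49 ± 0.26 (SE, adjusted p = 0.5996). None of the 10 responses to coculture differed between the groups either, against a background of 0.00637%. By edgeR, 0 of the 10 genes had an unadjusted p under 0.05 in either of these comparisons, where 1263 of all genes had one between the groups in coculture and 1196 between the responses. DESeq2 called none of the 10, and 193 and 187 of all genes.

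Around the 10 genes, 59 other genes of salvage, transport and breakdown from 7 lists were in the table, of which 48 were tested over the 8 lines. Of these, 21 rose, 14 fell and 13 were not called, with a median log2 fold change of 0.14. Over all genes tested 27.2% were called higher and 27.4% lower, and these shares stand beside each list that follows. Among nucleoside transporters only Slc29a3, the lysosomal and mitochondrial ENT3, was tested, and it fell by 0.63 (adjusted p = 0.00449), lower in 8 of 8 lines. Of 6 drug and nucleotide efflux pumps, 2 rose and 3 fell. Abcc10 went from a median of 8.20 to 3.79 CPM and fell by 0.88 (adjusted p = 0.00331), and Abcb1b, a P-glycoprotein gene, rose by 0.61 (adjusted p = 0.0195).

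Of 14 other salvage kinases, 4 rose and 4 fell. Nme2, a nucleoside diphosphate kinase with a close paralogue in Nme1, rose by 0.49 (adjusted p = 0.00959). Of 12 nucleotidases and hydrolases, 5 rose and 3 fell. Dctpp1, which hydrolyses dCTP and its analogues, doubled from a median of 10.1 to 20.4 CPM (log2 1.06, adjusted p = 0.00110), and Nt5c2, a cytosolic 5′-nucleotidase, fell by 0.27 (adjusted p = 0.00431).

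Of 11 phosphorylases, deaminases and phosphoribosyltransferases, 7 rose and 3 fell. Aprt, which salvages adenine, rose by 0.55 (adjusted p = 0.00135) and Ada, adenosine deaminase, by 1.40 (adjusted p = 0.00136), although Ada stayed at 3.78 CPM or less in every line. Upp2, the second uridine phosphorylase, fell by 0.88 in 8 of 8 lines (adjusted p = 0.00242), opposite to Upp1. Gda, guanine deaminase, fell by 2.16 (adjusted p = 0.00319), from a median of 106 CPM to 14.8 CPM. In pyrimidine and purine breakdown, Xdh, xanthine dehydrogenase, rose by 0.77 (adjusted p = 0.0337) and Dpyd, which degrades uracil, was at 0.777 CPM or less in every line and not called. Tyms, thymidylate synthase, rose by 0.36 (adjusted p = 0.0534).

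Genes of S phase and mitosis rose in 23 of 25 cases with a median log2 fold change of 0.74, among them Cdt1 (1.16), Mcm2 (0.80), Cdk1 (0.73) and Ccne2 (1.35). The median of the 10 genes was 0.54, and Rrm2 and Tk1, which followed the S phase score over lines, rose by 0.50 and 0.49. Of 20 p53 targets, which were followed because Rrm2b is one, 10 rose and 5 fell with a median of 0.32, where 27.4% of all genes fell. Eda2r rose by 2.86, Polk by 0.85 and Bax by 0.43, and Btg2 fell by 1.65 on the log2 scale. The part of S phase genes in the changes of Dck, Rrm1, Rrm2 and Tk1 was not tested. Of 8 immune and endothelial markers 3 were tested, of which Cd68 and Kdr rose and Pecam1 fell by 1.08 on the log2 scale. Cd68 lay between 3.91 and 18.5 CPM in the mono-cultures and between 11.8 and 40.5 CPM in the cocultures, Ptprc was at 0.118 CPM or less in every line and culture, and Cd3e was at 0.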

How the data were processed

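RNA sequencing (strand-specific, polyadenylated RNA, paired-end) of 8 tumor lines in 2 cultures was analysed, 64 libraries. The authors deposited counts of reads for 39017 genes, without normalization, and RPKM values for 49585 genes. The submitters' processing notes name featureCounts, edgeR and mm10, and the aligner and annotation are not given in the sources used here. Samples were grouped by the labels, and clones by the assignment of the study. Counts were tested with edgeR (4.0.16, R 4.3.3) after TMM normalization and filterByExpr, with a threshold of 0.1: single libraries within lines and between lines, and the summed libraries of each line and culture for responses over lines (line as covariate) and for groups. The fits were tested on simulated data. CPM was computed with TMM factors, and log2 CPM with a prior count of 0.5. Identifiers were matched to GENCODE M21, and of 2 rows named Uck2 that with the annotated identifier was used. The members and lists were chosen with earlier results of these data known. All 10 members are named, then per list up to 2 genes with the smallest p-values, up to 3 per direction over all 7 pathway lists, the 3 genes most alike to each member and up to 4 genes of other lists; Dpyd, the markers Krt18, Epcam, Cdh1, Lum, Col1a1, Fn1, Kdr, Pecam1, Ptprc and Cd3e and the paralogue Nme1 were named after their values were seen, and a few items are not reported here. Same-numbered libraries deviated together in some lines only. A running number in the sample titles places each mono-culture library directly before the coculture library with its replicate number, but no label states a pairing. Fits without a block were used, and a paired fit is given as an alternative. Alternatives were DESeq2 (1.42.0), RLE normalization, no filter, limma (3.58.1) on log2(RPKM + 1) and log2(RPKM + 0.1), a threshold of 0.05, sample number series, replicate blocks, and leaving out lines or replicates.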

Additional observations from a re-analysis of the deposited data

Results flagged for a closer look

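In 7 of 160 groups of 4 libraries, 1 library lay far from the other 3 by Dixon's criterion, where chance alone flags about 1 in 20 groups, or 8. Dck was at 22.7 CPM in replicate 1 of KPC1 in mono-culture, with the others between 29.8 and 31.1 CPM. Slc29a1 was at 169 CPM in replicate 4 of E in coculture, with the others between 219 and 225 CPM. Rrm1 was at 195 CPM in replicate 1 of E in coculture, with the others between 156 and 160.4 CPM. Rrm2b was at 49.5 CPM in replicate 1 of T in coculture, with the others between 66.1 and 67.3 CPM. Upp1 was at 4.399 CPM in replicate 3 of V in coculture, with the others between 6.76 and 7.19 CPM, and at 11.9 CPM in replicate 1 of KPC1 in mono-culture, with the others between 7.78 and 8.12 CPM. Tk1 was at 20.3 CPM in replicate 4 of K in coculture, with the others between 8.19 and 9.82 CPM.

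The response to coculture differed between the 8 lines by the interaction test for 9 genes. The adjusted p-values (edgeR) were 8.28e-05 for Dck, 4.49e-05 for Cda, 2.12e-07 for Slc29a1, 2.99e-05 for Slc29a2, 0.0447 for Rrm2, 3.17e-06 for Rrm2b, 1.34e-06 for Dctd, 0.000270 for Upp1 and 0.00207 for Tk1.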

How the results depend on the processing

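Of the 10 genes, between 7 and 9 were called over lines under every alternative run, against 8 in the main test. DESeq2, RLE normalization and no filter each called 8, and leaving out a line gave 7 to 9 and a replicate number 7 to 8. Over those alternatives, 169 of 180 results for single genes kept their call, 7 lost it and 4 gained it, all for Rrm2, Tk1 or Rrm2b, and no called direction turned. Within lines, 42 to 48 of the 80 pairs of gene and line were called, against 48, apart from 1 paired fit described here. The interaction of line and culture was called for 8 or 9 genes under all alternatives, the one lost being Rrm2 without replicate 2 or 4. No gene of the 10 was called between the groups under any alternative. Same-numbered libraries had correlations of deviations between -0.0692 and 0.291, over 0.1 in 18 of 32 pairs and higher than with any other number in 24, a hint of pairing from the data. Since not every pair passed 0.1, the numbers were not taken to pair the samples, although in N all 4 pairs did (0.230 or more). The sample titles also number such libraries consecutively, so a paired design remains possible. With the replicate number as a block 47 of 80 pairs were called within lines, and on single libraries with the block 9 of 10 genes over lines, Rrm2b being added. In a paired fit, with same-numbered libraries of a line as a replicate block, an alternative added after seeing the data, 54 of 80 were called within lines. All 48 remained, none of the 10 calls in N changed, and those gained were Rrm2 in H and T, Upp1 in K and V, Rrm1 in K and Cda in V. Using RPKM in place of CPM moved no ratio of highest to lowest line by more than its replicate spread. Upp1 in clone E rests on under 1 CPM in mono-culture, where counting error is largest.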
